A study of Mus musculus and blank sample with 768 samples.

Results

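Lymph node GFP+ endothelial cells are mouse cells that were sorted one by one as CD45- CD31+ GFP+ from lymph nodes, in pools named A, B and C. A well counted as a cell when its gene reads numbered 50000 or more, 1000 or more genes were detected, and no more than 25% of reads were mitochondrial. By this rule 98 cells were kept, 43 of 48 wells in pool A, 33 of 36 in pool B and 22 of 32 in pool C, out of 592 cells kept in the whole series. CD45 is the leukocyte surface protein of the gene Ptprc, and CD31 the endothelial adhesion protein of Pecam1. The labels call GFP+ cells endothelial cells of the Csf1r lineage and GFPlow cells potential ones. Csf1r is the receptor for the growth factor CSF1. They were set beside GFP- endothelial cells (CD45- CD31+ GFP-) of the same pools (74 kept), GFPlow cells (CD45- CD31+ GFPlow) of pools B and C (29 kept), and tumour cells sorted as CD45- CD31+ GFP+ on other plates (84 and 85 kept). The labels give no strain, genotype, driver of GFP, age, sex or animal for any group, nor what a pool holds, and GFP was not analysed here. The cells of a group were therefore 1 sample, no test between groups was run, and values were also taken by pool.

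A lymph node takes in lymph through a sinus below its capsule. The endothelium on the capsule side is the ceiling of this sinus. The endothelium over the lymphoid tissue is its floor, which touches sinus macrophages and controls what passes into the node. Prox1 encodes the transcription factor that sets lymphatic identity, and Lyve1 a hyaluronan receptor of lymphatic endothelium. The floor was followed with Madcam1 (an adhesion ligand of lymphocyte integrins), Itga2b (an integrin chain best known from platelets), Coch (a secreted matrix protein), Ccl20 (a chemokine), Bmp2 (a growth factor) and Csf1 (the macrophage growth factor). On GRCm38 the annotation places Prox1 on chromosome 1, 190118035 to 190170714, minus strand. It places Madcam1 on chromosome 10, 79664559 to 79668537, plus strand, and Itga2b on chromosome 11, 102453297 to 102470122, minus strand. It places Coch on chromosome 12, 51593341 to 51605771, plus strand, and Lyve1 on chromosome 7, 110850607 to 110863239, minus strand. Values refer to whole genes, and reads of Prox1 and of the overlapping gene Prox1os may not be told apart.

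Promoter sequences from RefSeq (GRCm38.p6, 250 bases before to 50 after the start) were held for 5 of the 6 floor genes. Both strands were searched for GGG and CC separated by 5 bases of any kind, a pattern of the NF-kB type, and for GGAAGT, of the ETS type. Shown are the promoters of 3 floor genes that differ in how many cells carried their reads, with matches in capitals and overlapping matches merged.
Madcam1, chr10:79664309-79664608, plus strand: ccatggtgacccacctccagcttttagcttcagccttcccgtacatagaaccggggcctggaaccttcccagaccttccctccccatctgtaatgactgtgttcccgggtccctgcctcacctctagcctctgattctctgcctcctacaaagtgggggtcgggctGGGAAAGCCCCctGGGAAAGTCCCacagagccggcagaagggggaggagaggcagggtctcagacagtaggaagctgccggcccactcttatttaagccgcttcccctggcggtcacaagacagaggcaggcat
Csf1, chr3:107760420-107760719, minus strand: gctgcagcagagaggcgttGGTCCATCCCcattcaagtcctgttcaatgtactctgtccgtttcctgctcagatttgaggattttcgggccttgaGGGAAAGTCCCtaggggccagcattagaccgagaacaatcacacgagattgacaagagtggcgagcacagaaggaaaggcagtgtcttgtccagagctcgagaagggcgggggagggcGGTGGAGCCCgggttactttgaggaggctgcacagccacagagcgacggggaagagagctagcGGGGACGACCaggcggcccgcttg
Ccl20, chr1:83116516-83116815, plus strand: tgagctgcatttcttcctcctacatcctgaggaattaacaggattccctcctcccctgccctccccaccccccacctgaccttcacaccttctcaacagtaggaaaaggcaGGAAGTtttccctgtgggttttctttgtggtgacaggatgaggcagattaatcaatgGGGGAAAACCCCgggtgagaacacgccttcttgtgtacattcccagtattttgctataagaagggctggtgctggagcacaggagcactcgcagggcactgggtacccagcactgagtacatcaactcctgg
The Madcam1 window held 2 neighbouring matches, GGGAAAGCCCC and GGGAAAGTCCC, starting 84 and 71 bases before the start of the gene. GGGAAAGTCCC also stood in the Csf1 window, and GGGGAAAACCCC in that of Ccl20. The NF-kB type pattern was found in 5 of 5 floor promoters and in 50.8% of all 32851 promoters of this length. GGAAGT was found in 2 of 5, those of Itga2b and Ccl20, and in 23.8% of all. A match is a run of letters, not a measured binding site.

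Members held 65814 to 2729642 reads in genes, and pool B had fewer genes per cell (median 2171) than pool A (3084) or pool C (2881.5). All 18 wells that failed fell under the gene minimum. The lowest gene number kept was 1165, and the highest left out was 797. Reads are PCR products without molecular identifiers, so Poisson intervals, which take summed reads as independent, may be too narrow. Clopper-Pearson intervals on shares take cells as independent draws. Neither covers differences between pools.

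The cells carried lymphatic genes and floor genes side by side. Prox1 had reads in 78 of 98 cells (79.6%, exact Clopper-Pearson 95% interval 70.3 to 87.1%), with 74.4%, 87.9% and 77.3% by pool (A, B, C in this order throughout). Lyve1 had reads in 71.4% (61.4 to 80.1%), with 72.1%, 78.8% and 59.1% by pool. Madcam1 was the most widely detected of the 5 listed markers, in 91.8% (84.5 to 96.4%). It stood at 1516, 1791 and 1477 CPM by pool, where CPM is the gene's summed reads scaled to 1000000. Its per-cell median was 1336 CPM, and the highest cell had 4795 CPM. Madcam1 levels lay close together in the 3 pools, and Prox1 was detected in most cells of each.

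Itga2b had reads in 81.6% of cells (72.5 to 88.7%) and stood at 718, 723 and 362.8 CPM by pool, lowest in pool C. Coch had reads in 66.3% (56.1 to 75.6%) and stood at 2043, 3084 and 2716 CPM. Csf1 had reads in 95 cells and 610.3, 935 and 626 CPM, and Bmp2 in 91 cells and 619, 559 and 767 CPM. Ccl20 was the least widely detected floor gene, with reads in 41 cells and 186.9, 1141 and 568 CPM. It was lowest in pool A and highest in pool B. At least 4 of the 6 floor genes had reads in 87 of 98 cells, and no cell lacked all of them.

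**Figure D1:**
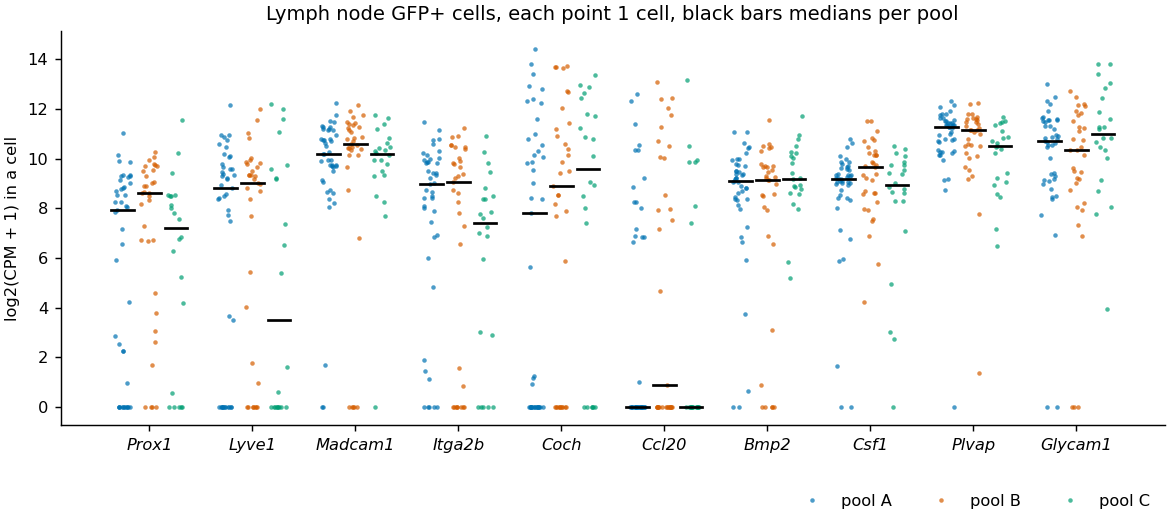
Level of 10 genes in each of the 98 lymph node GFP+ cells (vertical axis, log2 of CPM + 1), by pool. Madcam1, Bmp2, Csf1, Plvap and Glycam1 have reads in over 90% of cells, while Coch and Ccl20 divide into cells at 0 and cells at high levels.

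All 5 listed markers were found together in 34 cells, 4 in 35, 3 in 18, 2 in 8 and 1 in 3. The count followed the genes detected per cell, with a median of 2910.5 genes in cells with all 5 and 1420 in cells with 1. The 20 cells without Prox1 reads still held Madcam1 in 17, Bmp2 in 19, Csf1 in 18 and Plvap in 19. Flt1, a receptor of blood endothelium, had reads in 1 of them. Their median was 2494 genes, against 2845 in cells with Prox1 reads, so missed and absent transcripts cannot be told apart.

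Other lymphatic genes were present in part. Maf, a transcription factor, had reads in 89.8% of cells and 183.04, 144.3 and 148.3 CPM by pool. Flt4, the receptor for VEGF-C, had reads in 66.3% and stood at 215.1, 240.5 and 78.3 CPM, lowest in pool C. Pdpn, a membrane glycoprotein of lymphatic endothelium, had reads in 46.9% of cells. Ccl21a, a chemokine that guides dendritic cells and T cells, had reads in 2.04% and stood at 0.0210 CPM.

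Genes of the sinus ceiling were close to absent. Ackr4, a scavenger receptor for chemokines, and Fbln2, a matrix protein, each had reads in 1 cell. Cd36, a fatty acid transporter, had reads in 3 cells. Bmp4 had none in 98 cells, which allows a share of cells with a read of up to 3.06% when a count of 0 is taken to allow 3 cells (exact 95% upper limit 3.69%). The 5 ceiling genes together stood at 5.24, 0.231 and 0.0733 CPM by pool.

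Most blood endothelial genes were at or near 0 too, apart from Plvap, which forms the diaphragms of endothelial pores. Plvap had reads in 97 cells and 2459.9, 2324 and 1852 CPM by pool. Ly6c1, Sox17 and Esm1 had 0 reads, and Nrp1, Vwf and Selp had reads in 1 cell each. Glycam1, a mucin known from high endothelial venules, had reads in 93 cells and 2162, 1853 and 4243 CPM, highest in pool C. Enpp2, another gene of these venules, had reads in 88.4%, 81.8% and 100% of cells and 797, 1488 and 722 CPM by pool. Chst4 and Fut7, enzymes with which those venules build ligands for lymphocyte homing, had reads in 1 cell each.

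Scavenger and antigen presentation genes were present in part. Msr1, a scavenger receptor, had reads in 75.5% of cells and 787, 558 and 367.6 CPM. Stab1, of the same class, had reads in 72.4%, Stab2 in 13.3% and Marco in 3.06%. Clec4g, a lectin known from sinusoidal endothelium, had reads in 41.8% and 355.9, 476 and 154.2 CPM. Stab1, Stab2, Marco and Clec4g also belong to a list of 8 genes of medullary lymphatic endothelium. Together these 8 stood at 932, 1143 and 557 CPM by pool, and at 1085 CPM in GFP- cells. Cd74, the invariant chain of MHC class II, had reads in 95.9%. Of the class II chains, H2-Ab1 had reads in 51.2%, 45.5% and 59.1% of cells by pool, at 313.5, 336.3 and 327.2 CPM. The chains H2-Aa and H2-Eb1 were found in 17.3% and 21.4% of all cells, and the transactivator Ciita in 1 cell.

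Many markers of other cell types were at 0, and others were present. Ptprc had 1 read in 1 cell, and Itgam, Cd52, Cd79a, Ighm, Cd3e, Cd4, Flt3, Pdgfra, Pdgfrb, Col1a2, Gp9 and Epcam had none. The 15 macrophage genes together stood at 702, 467 and 358.7 CPM by pool, against 43854 CPM in tumour macrophages, and 8 of them were under 1 CPM. In GFP- cells they stood at 94.8 CPM. By the rule given further on, 2 of 4 measured were called higher in GFP+ cells, as were 11.9% of all 11140 measured genes. Ctss, a lysosomal protease, made up most of the GFP+ sum, at 454 CPM with reads in 70.4% of cells. Of the Lyz2 reads, 81.3% came from 1 cell of pool A. Of the 8 platelet genes, Itga2b and Pf4 were among those present (Pf4 at 40.6 CPM in 36.7% of cells). Under 1 CPM were 4, of which Gp9, Gp1bb and Treml1 were at 0. Together the 8 stood at 684 CPM in GFP+ and 50.6 CPM in GFP- cells. Of 4 platelet genes measured, 3 were called higher (median log2 ratio 3.11). No reads were found for 4 of 4 epithelial genes, 5 of 8 of B cells, 5 of 7 of T cells, 4 of 6 of dendritic cells and 4 of 10 of fibroblasts or pericytes. Cd53, a leukocyte tetraspanin, had reads in 28 cells and stood at 116.9, 100.3 and 102.5 CPM by pool, against 11.6 CPM in GFP- cells, and was called higher. The 8 genes of the haematopoietic list, Ptprc, Cd52 and Cd53 among them, stood together at 149.7 CPM, with 3 under 1 CPM. In GFP- cells they stood at 78.6 CPM. In pool C alone the order was reversed, at 113.6 CPM in GFP+ and 229.6 CPM in GFP- cells. Of 3 measured, 1 was called higher and 1 lower. Zbtb46, a transcription factor of dendritic cells that endothelium also expresses, had reads in 38 cells and stood at 136.6, 206.3 and 26.03 CPM. Ccl19, a chemokine of lymph node stroma, had reads in 35 cells and stood at 31.6, 3.92 and 36.8 CPM. Of the plasma cell list, Xbp1 and Sdc1 had reads in 57 and 49 cells. Rgs5, a signalling regulator known from pericytes, had reads in 50% of cells. The 10 genes of fibroblasts or pericytes together stood at 308.1 CPM in GFP+ and 29.6 CPM in GFP- cells. Of 2 measured, 1 was called higher (median log2 ratio 3.71). The part of RNA from other cells in these values was not tested.

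Csf1r reads were few. They were found in 39 cells, 51.2%, 24.2% and 40.9% of pools A, B and C, and 15 of these cells had 3 reads or fewer. The sum was 3.48 CPM (exact Poisson 95% interval 3.12 to 3.88). A single cell of pool C, the shallowest of the 98, at 1033 CPM, held 20.5% of the reads. With cells thinned to 100000 reads (95 cells, 3 being shallower), 12.6% had a Csf1r read.

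GFP- cells of the same pools show which of these genes separate the gates. Genes were measured if they reached 1 CPM and 5% of cells in either gate. They were called if summed reads and the average of single-cell CPM both differed 2-fold or more, with 1 direction in all 3 pools. Of 11140 measured genes, 1327 (11.9%) were called higher in GFP+ cells and 764 (6.86%) lower, and the median log2 ratio was 0.04. Requiring 1 direction in only the remaining pools gave 2067 and 1252 genes without pool A, and 1751 and 1543 without pool C, which held 8 GFP- cells.

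The 6 floor genes were all called higher in GFP+ cells, with a median log2 ratio of 3.89. This median was 8.91, 3.05 and 8.69 by pool, and 8.62 without pool B. In pool B, 4 of 26 GFP- cells had reads of at least 4 floor genes, against 0 of 40 in pool A and 0 of 8 in pool C. Madcam1 stood at 0.0888, 247.5 and 1.08 CPM in GFP- cells by pool, below the GFP+ level in each. Itga2b stood at 0.222, 23.98 and 0 CPM and Coch at 0.0444, 321.2 and 0 CPM in them. Csf1, which macrophages need, stood at 70.4, 327.1 and 111.3 CPM, and Bmp2 at 0.577, 82.03 and 70.3 CPM. Ccl20 stood at 0.0444, 84.9 and 0.216 CPM. Each of these lay below the GFP+ level of its pool, and pool B had the highest GFP- level of all 6 floor genes. GFP- cells were a mixture, with Prox1 reads in 36.5% and Flt1 reads in 64.9%, so a ratio also depends on which cells that gate held.

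Blood and ceiling genes led the lower calls. Of 12 measured blood endothelial genes 10 were called lower, with a median log2 ratio of -7.84 (-9.32 with genes at 0 reads set to a floor of 3 reads over the group). Ly6c1 had 0 reads in GFP+ cells and 1061, 914 and 976 CPM in GFP- cells by pool, at least 31369-fold lower. Of 5 ceiling genes 4 were called lower (median -6.41, or -8.45 with such genes at that floor). Of 12 genes shared by endothelial cells 9 were called lower (median -1.50). Among them Pecam1 was at 622 CPM in GFP+ and 1902 CPM in GFP- cells, and Emcn, a sialomucin, at 1.30 and 529 CPM.

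Lymphatic genes were called in both directions. Of 12 measured lymphatic endothelial genes, Lyve1, Flt4 and Maf were called higher and Ccl21a, Mmrn1 and Thy1 lower. The list median was -0.22. Flt4 stood at 79.9, 118.3 and 0 CPM in GFP- cells by pool, and Maf at 17.97, 83.98 and 71.4 CPM, each below the GFP+ level in every pool. Prox1 stood at 266.96, 428 and 267.1 CPM in GFP+ and 155.1, 307.7 and 3.67 CPM in GFP- cells and was not called, with a log2 ratio of 0.59. Of 11 measured lymphatic transcription factors, 2 were called higher, and Sox18, Hhex and Nfatc1 were called lower (median -0.48). Of 7 valve genes, Cldn11, a tight junction protein, and Itga9, an integrin chain, were called higher (log2 ratios 1.64 and 1.69), and Nfatc1 lower (median -0.55).

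Immune genes were divided as well. Of 16 genes of immune regulation, Ccl20, Cxcl1, Csf1 and Vcam1 were called higher and Ccl21a, Ackr4 and Lgals9 lower (median -0.03). Vcam1, an adhesion molecule for leukocytes, stood at 1656, 951 and 1479.9 CPM in GFP+ cells by pool, and at 252.8, 209.6 and 167.8 CPM in GFP- cells. Of 10 measured scavenger receptors and lectins, Lyve1, Msr1, Clec4g and Fcgr2b were called higher and Scarb1 and Clec14a lower (median 0.20). Clec4g had 0 reads in GFP- cells, and the GFP+ level was at least 5259-fold higher. Of 5 measured medullary lymphatic genes 2 were called higher and 1 lower (median 0.12). Of 6 class II genes, H2-Aa and H2-DMa were called lower and none higher, while the list median was 0.21. No gene of the interferon list (10 measured) or the dissociation stress list (10 measured) was called; their medians were -0.67 and -0.89. Of 8 genes of high endothelial venules 4 were called lower and none higher (median -1.38). Glycam1 was not among them, at 3683, 1622 and 4328 CPM in GFP- cells by pool.

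Of 12 matrix genes, Col4a1, Col4a2, Hspg2 (perlecan), Sparc and Sparcl1 were called lower (median -0.87). Postn, the matrix protein periostin, was called higher, at 2530.1, 2922 and 2714 CPM in GFP+ cells and 0.0888, 98.1 and 45.3 CPM in GFP- cells by pool. Outside the lists the highest called ratio was that of Mme, a membrane peptidase, at 111.2 CPM against 0 reads, at least 1767-fold higher. The other 14 were Igsf10, Zeb2, Scg5, Unc5c, Cfp, Chrnb4, Pthlh, Cd44, Astn1, Serpina12, Esr1, Cpxm1, Vasn and Rgs4. Mme and Igsf10 reached fewer cells (28.6% and 26.5%) than Astn1. Cd44, a hyaluronan receptor, stood at 110.9 CPM in GFP+ and 2.52 CPM in GFP- cells, and Esr1, the estrogen receptor, at 194.6 and 7.38 CPM. Pthlh, a secreted hormone-like peptide, had reads in 43.9% of GFP+ and 4.05% of GFP- cells. Astn1 had reads in 77.6% of GFP+ and 6.76% of GFP- cells. The lowest was Tinagl1, at 0 reads against 403 CPM in GFP- cells, followed by Id1, Gdf10, Fabp4, Mgll, Cdh13, Cd93, Jam2, Plscr2, Id3, Serpinb1a, Ch25h, Ctla2a, Pcp4l1 and Proser2. Id1 and Id3, which hold back helix-loop-helix transcription factors, had reads in 0% and 3.06% of GFP+ cells and 40.5% and 59.5% of GFP- cells.

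**Figure D2:**
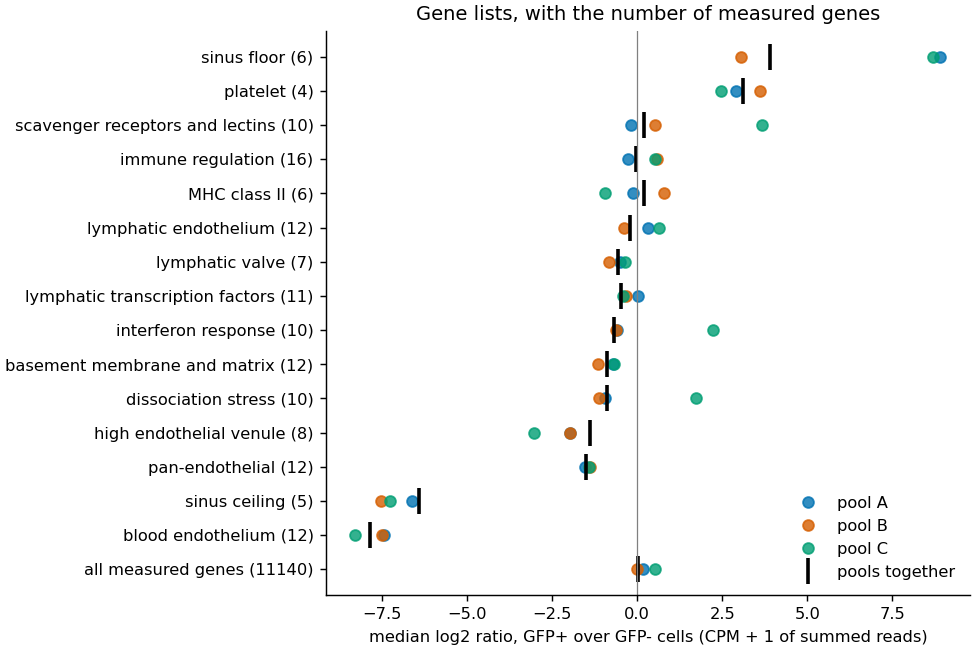
Median log2 ratio of GFP+ to GFP- cells (horizontal axis, from summed CPM + 1) for gene lists and for all measured genes; coloured points are pools and black bars the pools together. The blood list (-7.84) and the ceiling list (-6.41) lie below 0 in each pool, and the floor list (3.89) above 0.

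GFPlow cells of pools B and C also carried the floor genes. At least 4 of the 6 had reads in 19 of 29 GFPlow cells and 46 of 55 GFP+ cells of these pools. By the same rule, 1921 of 10470 measured genes (18.3%) were called higher in GFP+ cells and 1010 (9.65%) lower. With pool B alone these were 3279 and 2662, and with pool C alone 2794 and 2471. Madcam1, at 1630.2 against 735 CPM, and Ccl20, at 848 against 421 CPM, were the 2 floor genes called higher. Itga2b stood at 538 and 398 CPM, Coch at 2895 and 1809 CPM, and Csf1 at 777 and 930.0 CPM, none of them called. The floor list median was 0.56 against -0.0043 over all measured genes. Bmp2 stood at 665 and 618 CPM and was not called.

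Of 7 valve genes Foxc2, Efnb2 and Nfatc1 were called lower in GFP+ than in GFPlow cells (list median -1.18), Foxc2 with reads in 3 GFPlow and 3 GFP+ cells. Of 5 measured class II genes H2-Aa and H2-Eb1 were called higher (list median 0.72), with reads in 1 and 2 of 29 GFPlow cells and 8 and 9 of 55 GFP+ cells. Cd36 was called lower on 1 GFPlow cell: in pool B it stood at 0.192 CPM in GFP+ cells and 895 CPM in GFPlow cells, all in 1 of 15 cells. In pool C it stood at 0.0367 and 0.0654 CPM, 1 read in each gate. Of 4 measured blood endothelial genes Flt1 and Cd34 were called higher, both on few cells. Flt1 stood at 13.3 CPM in 5 of 55 GFP+ cells against 0 reads. Cd34 had reads in fewer GFP+ cells than Flt1. Msr1 was called higher, at 460.4 against 151.9 CPM. Outside the lists, the 10 highest ratios were those of Specc1l, Cnn2, Fxr1, Slc9a8, Clcn7, Cherp, Inpp5d, Mid2, Dock1 and Mx2, each with reads in 25.5 to 30.9% of GFP+ cells. The 10 lowest were those of Golga5, Adgra2, Ap3m1, Dtx1, Ephx2, Errfi1, Asxl2, Rbmx, Psmd11 and Nr4a1, each with reads in 27.6 to 34.5% of GFPlow cells. These are genes detected in a minority of cells, and GFPlow had 29 cells.

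**Figure D3:**
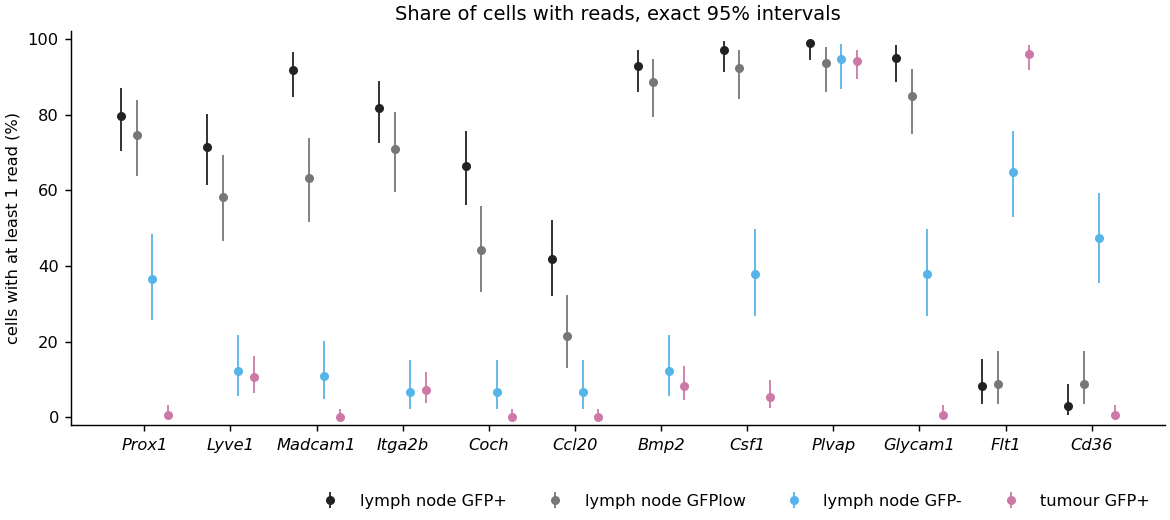
Share of cells with a read (vertical axis, percent) for genes in lymph node GFP+, GFPlow (79 cells, those outside pools B and C included), GFP- and tumour GFP+ cells; bars are exact 95% intervals. Madcam1, Coch and Ccl20 have no reads in tumour cells, and Flt1 is found in 95.9% of tumour cells and 8.16% of lymph node GFP+ cells.

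Tumour GFP+ cells shared the gate but few of these genes. They came from other plates and another table, so tissue and plate cannot be told apart. Madcam1, Coch and Ccl20 had 0 reads in them, which allows a share of cells with a read of up to 1.78% by the same rule (exact 95% upper limit 2.16%), and Prox1 and Postn had reads in 1 cell each. Flt1, Cd34 and Emcn were found in 95.9%, 95.9% and 93.5% of tumour cells, and in 8.16%, 3.06% and 1.02% of lymph node GFP+ cells. Plvap was found in 94.1% and 98.98%. Xist, the RNA that silences an X chromosome in female cells, reached 10 CPM in 78.1% of tumour and 7.14% of lymph node cells. The part of sex in the difference was not tested.

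The pools of lymph node cells differed in sex-linked genes and in Hspa1b. Xist reached 10 CPM in 7 cells of pool B and in 0 of pools A and C. The Y-linked genes Ddx3y, Eif2s3y, Uty and Kdm5d together reached it in 24, 8 and 14 cells of pools A, B and C, and no cell had both. Hspa1b, a chaperone, stood at 3.63, 143.98 and 6.75 CPM, high in pool B; its reads and those of its near-identical copy Hspa1a may not be told apart. Nr2f2, a transcription factor of venous and lymphatic endothelium, stood at 114.4, 132.3 and 11.99 CPM, low in pool C. Among 77 list genes that reached 20 CPM and 25% of cells, 11 (14.3%) ranged over 4-fold between pools, against 9.64% of 3268 genes at such levels.

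Between single cells Coch stood out by its variance at a given mean. For 2558 genes detected in an intermediate share of cells of each pool, the variance of log2(CPM + 1) was compared with the median variance of genes of like mean. Coch had the largest excess among them (17.27, against a median of -0.18 over these genes). Fos, with reads in 81.8% of pool B cells, lay above the shares admitted and was not ranked, and its variance was larger than that of Coch. Coch had no reads in 33 cells, a median of 1508 CPM in the 65 cells with reads, and 21774 CPM in the highest cell. Ccl20 had an excess of 8.40 and a median of 941 CPM in its 41 cells with reads. Lyve1 (6.95) and Clec4g (6.52) were also among the 20 most variable genes.

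Immediate early genes, which respond quickly to stimulation and to tissue dissociation, varied too. Dusp1, a phosphatase, had an excess of 9.47, Egr1 of 7.83 and Junb of 6.13. At least 5 of Fos, Jun, Egr1, Dusp1, Junb and Ier2 reached 10 CPM in 35 cells, which were 32.6%, 45.5% and 27.3% of pools A, B and C. At most 1 of them did so in 28 cells. The other variable genes were Rgs4, Cxcl10, Ttn, Tgtp2, Cxcl1, Socs3, Cyp4b1, Bhlhe40, Sulf1, Rgs5, Ctss, Apoe and Ly6i. Socs3, an inhibitor of cytokine signalling, stood at 345.4, 1146 and 333.1 CPM by pool, highest in pool B. Cxcl10, an interferon-induced chemokine, had reads in 25.6%, 51.5% and 31.8% of cells of pools A, B and C.

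**Figure D4:**
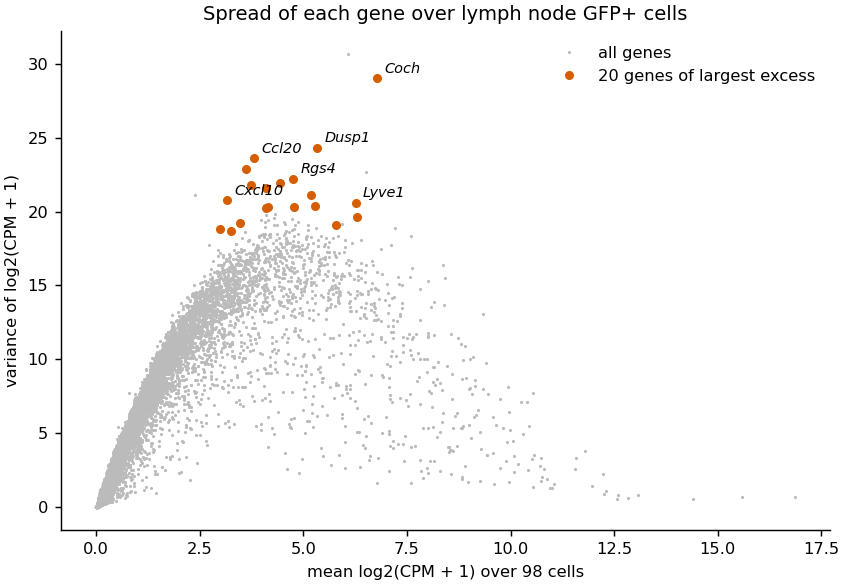
Variance (vertical axis) against mean (horizontal axis) of log2(CPM + 1) over the 98 lymph node GFP+ cells, with the 20 genes of largest excess in colour. Coch has the largest excess, with a variance of 29.02.

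Over all cells the markers varied mostly apart from each other, and pools differed. Pearson's r over 98 cells, for the 10 pairs of the 5 listed markers, ran from -0.20 (Itga2b and Coch) to 0.33 (Prox1 and Lyve1), with a median of 0.10. Within single pools r ran from -0.50 (Prox1 and Madcam1, pool C) to 0.55 (Prox1 and Itga2b, pool B). Prox1 and Lyve1 had 0.21, 0.39 and 0.47 by pool, and 0.21 in the 74 cells of a stricter filter. Madcam1 and Glycam1 had r = 0.49, and 0.80, 0.33 and 0.29 by pool. Madcam1 and Plvap had r = 0.44, which was -0.15 in the 74 cells that passed a stricter filter. Points share depth and missed transcripts, so these are descriptions.

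Leiden clustering without the list genes gave 6 groups, and Bmp2 and Csf1 had reads in over 80% of the cells of each. The first principal component followed the number of genes per cell (r = 0.95). Cluster 5 held 24 cells (4, 12 and 8 of pools A, B and C), with a median of 1689.5 genes against 2519.5 to 3121 in the others. Madcam1 had reads in 75% of cluster 5 and in 92 to 100% of the others, and Prox1 in 66.7 to 87.5% over all 6. Fos was among the leading genes of clusters 1 and 6, at 6279 and 4146 CPM. The clusters were left unnamed, and which cells they held changed with the settings.

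**Figure D5:**
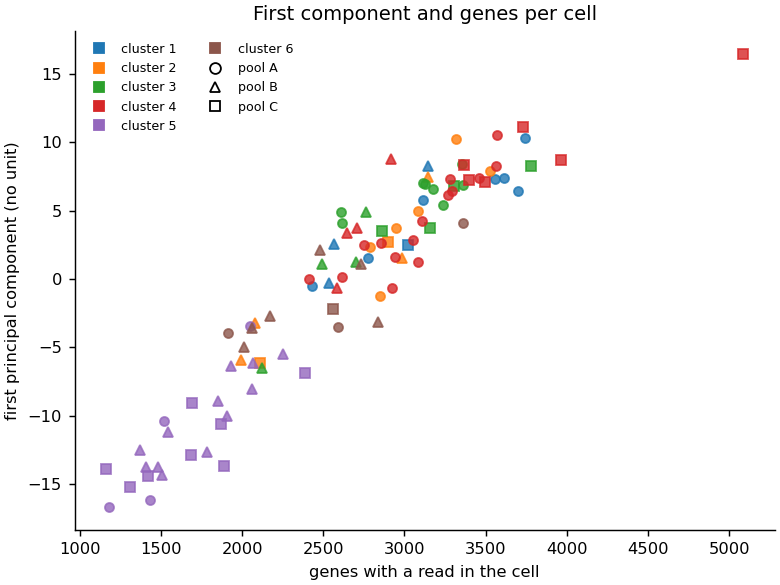
First principal component (vertical axis, no unit) against genes with a read (horizontal axis) in 98 lymph node GFP+ cells, coloured by cluster. The cells lie near 1 line (r = 0.95), with cluster 5 at the low end.

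Genes of cell division were rare. Mki67 had reads in 1 of 98 cells, Top2a and Ccnb1 in 0, and Ccna2 in 2.04%. Pcna, which also acts in DNA repair, had reads in 30.6%.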

How the data were processed

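Wells of FACS-sorted single cells were measured by a SMART-seq2 method, per the labels' protocols. The authors deposited raw read counts per gene in 2 tables of 51826 rows. FastQC 0.11.4, STAR 2.4.1b, Subread 1.4.6-p2 and build mm10 are named, per the submitters' processing notes. All columns matched a sample, and 92 rows sharing a symbol were summed.

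From the counts, CPM, shares of cells and log2 ratios (pseudocount 1 CPM) were computed with Python 3.11.15, pandas 2.3.3, scipy 1.17.1 and scanpy 1.11.5. Clusters used 1500 variable genes, 10 components, 10 neighbours and a resolution of 1. Cells were sorted singly, and no doublet caller was run. The code was tested on simulated data. Named were the listed markers, Pecam1, Ptprc and Csf1r, and examples from 29 lists by size of ratio; outside the lists, the 15 highest and lowest called ratios to GFP- cells and 10 to GFPlow cells among genes reaching 20 CPM and 25% of cells in the higher gate; and the 20 most variable genes. Further list members were named after their values were seen. The members and lists were chosen with earlier results of these data known. Alternatives were other pseudocounts, filters, averages, thinning, cluster settings and each pool left out; correlations in stricter cells were added after seeing the data. Some list members are not reported here. Gene positions are from GENCODE vM21.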

Additional observations from a re-analysis of the deposited data

How the results depend on the processing

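No paired test was run, because the labels do not say what a pool holds and the cells of a group were 1 sample. The pool links the gates, and ratios within each pool are given instead. Of 30 marker shares 29 stayed within their interval, and Madcam1 was 97.3% under a stricter cell filter (200000 reads, 2000 genes, 15% mitochondrial reads). Against GFP- cells the ceiling median was -4.80 with a pseudocount of 5 CPM, -6.88 from single-cell averages and -6.92 with thinned cells. The blood median was -6.35 with that pseudocount and -7.34 under the stricter filter, and the pan-endothelial median -1.34 under that filter and -1.62 when thinned. With 1 pool left out, 1751 to 2067 genes were called higher and 1021 to 1543 lower, and the floor, ceiling and pan-endothelial medians were 3.25 to 8.62, -7.51 to -6.27 and -1.58 to -1.49. Against GFPlow cells, 2794 to 3279 and 2471 to 2662 genes were called with 1 pool left out. The floor median was 0.50 to 0.75. The median of the proliferation list was -1.35 without pool B and 0.58 without pool C (main value 1.29). Measured genes were set anew in each setting, and the value without pool B comes from another set of genes. The 2 genes measured in the main setting had medians of 0.58 and 3.25 in pools B and C. The blood median against GFPlow cells was 0 without a filter on low genes (main value 2.30). Fewer pools loosen the rule of 1 direction; the cause of the other shifts was not tested. Clusters numbered 2 at a resolution of 0.5, 9 at 1.5, 7 with 5 components and 4 with 20. Their adjusted Rand indices to the main clustering were 0.235 to 0.663, so membership depended on these settings. Pool C, with 8 GFP- cells, and reads without molecular identifiers limit precision.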
